A study of Mus musculus with 8 samples.

Results

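In whole mouse adrenal glands, 753 of 147806 acetylated regions (0.509%) were called at postnatal day 1 (P1) in both sexes and at no other age that was sampled. The mark is acetylation of lysine 27 of histone H3 (H3K27ac), mapped by chromatin immunoprecipitation and sequencing (ChIP-seq). The regions were found by merging the peaks of 7 libraries on chromosomes 1 to 19 and keeping each merged region that overlapped a peak in the P1 female and the P1 male list and in none of the other 5 lists. The members were therefore chosen by the calls themselves, and their presence at P1 and absence elsewhere is a description and not a finding. All glands came from C57BL/6J mice, an inbred strain, with no treatment or engineered allele named. At E18.5, the sex of the embryos was not determined and 30 glands were pooled. At P1 each sex gave 1 pool of 22 glands, at 2 weeks of age 1 pool of 12, and at 12 weeks 1 pool of 6. Each age and sex was thus seen in 1 library, and no test across ages was made, since the calls that chose the members are the only measure of each age. An input DNA library of 12-week females was not used here.

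H3K27ac sits at active promoters and enhancers, the stretches of DNA that drive transcription of a gene from its start or from a distance. The adrenal gland holds a steroid-producing cortex and a catecholamine-producing medulla. Around birth in the mouse the cortex still carries a fetal zone, which is later lost as the definitive zones grow. In the steroid-producing cells the nuclear receptor SF-1, encoded by Nr5a1, binds enhancers and promoters of steroidogenic genes. A gland also contains vessels, connective tissue, nerve and blood, and in whole tissue a change in the mix of cells and a change in the mark within a cell type cannot be told apart.

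The DNA under some of the strongest members is printed here as an example of the marked sequence. Each window below is the central 300 bases around the overlap of both P1 peaks, on the plus strand of GRCm38, with matches in capitals to the SF-1 (CAAGGTCA), TEAD (ACATTCC) and E-box (CAGCTG) motifs and to that of the GATA factors, whose letters are AGATAA, on either strand. The first 6 are the strongest members by the lower of their ranks in both P1 lists among those outside repeat-rich and untranslated stretches. The last lies upstream of the adult beta-globin genes and was picked after its values were seen.
Near Tmpo, chr10:91249825-91250124: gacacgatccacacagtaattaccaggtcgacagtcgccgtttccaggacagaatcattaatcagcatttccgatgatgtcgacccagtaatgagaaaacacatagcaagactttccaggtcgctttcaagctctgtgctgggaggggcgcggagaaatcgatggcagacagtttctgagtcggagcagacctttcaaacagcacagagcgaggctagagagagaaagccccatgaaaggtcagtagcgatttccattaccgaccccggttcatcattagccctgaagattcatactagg
Near Vmn2r112, chr17:22674312-22674611: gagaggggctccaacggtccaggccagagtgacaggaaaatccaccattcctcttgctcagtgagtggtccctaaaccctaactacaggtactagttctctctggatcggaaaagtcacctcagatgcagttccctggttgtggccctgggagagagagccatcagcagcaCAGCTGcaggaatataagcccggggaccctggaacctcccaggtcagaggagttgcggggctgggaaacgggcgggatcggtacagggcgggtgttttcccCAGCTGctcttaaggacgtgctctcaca
Near Kif6, chr17:49691454-49691753: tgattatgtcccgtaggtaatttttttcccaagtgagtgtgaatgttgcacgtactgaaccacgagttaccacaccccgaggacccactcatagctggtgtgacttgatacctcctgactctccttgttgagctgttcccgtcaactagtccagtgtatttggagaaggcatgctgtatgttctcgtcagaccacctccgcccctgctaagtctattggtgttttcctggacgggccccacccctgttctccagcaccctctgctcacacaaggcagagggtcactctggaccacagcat
Near Adamts20, chr15:94444181-94444480: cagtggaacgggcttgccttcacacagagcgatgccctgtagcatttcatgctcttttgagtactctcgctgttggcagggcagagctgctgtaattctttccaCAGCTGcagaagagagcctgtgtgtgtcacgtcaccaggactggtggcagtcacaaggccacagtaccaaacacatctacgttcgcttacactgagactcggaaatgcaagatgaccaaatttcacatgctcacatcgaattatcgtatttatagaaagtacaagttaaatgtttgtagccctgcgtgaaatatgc
Near Ank3, chr10:69835225-69835524: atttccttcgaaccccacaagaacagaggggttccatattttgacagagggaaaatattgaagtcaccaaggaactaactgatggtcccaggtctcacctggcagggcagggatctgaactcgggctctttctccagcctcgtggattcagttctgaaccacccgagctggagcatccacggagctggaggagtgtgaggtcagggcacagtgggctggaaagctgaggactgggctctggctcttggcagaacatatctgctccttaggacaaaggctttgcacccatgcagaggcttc
Near Il9r, chr11:32100217-32100516: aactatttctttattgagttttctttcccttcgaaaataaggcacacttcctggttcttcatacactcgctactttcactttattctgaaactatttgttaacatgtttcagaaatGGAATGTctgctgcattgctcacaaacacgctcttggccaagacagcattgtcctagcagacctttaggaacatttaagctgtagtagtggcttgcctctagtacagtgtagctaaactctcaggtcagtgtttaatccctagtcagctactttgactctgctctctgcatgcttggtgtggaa
Upstream of Hbb-bs, chr7:103860128-103860427: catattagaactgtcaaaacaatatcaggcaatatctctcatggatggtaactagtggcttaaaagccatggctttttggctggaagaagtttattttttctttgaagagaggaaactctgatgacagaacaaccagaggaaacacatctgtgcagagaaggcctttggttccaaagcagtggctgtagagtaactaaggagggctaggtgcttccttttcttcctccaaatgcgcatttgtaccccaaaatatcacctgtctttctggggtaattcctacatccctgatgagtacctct
None of the 7 windows held the SF-1 motif. The E-box was found in the windows near Vmn2r112 and Adamts20, the TEAD motif in that near Il9r, and none of the 4 motifs in those near Tmpo, Kif6, Ank3 and Hbb-bs. The window near Il9r belongs to a region 455 bp from the start of Gm12108, which is not a protein-coding gene, and 99449 bp from Il9r itself. The last window is nearest to Hbb-y, the embryonic globin gene of the same locus.

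The lists carried peaks at genes of adrenal tissue. Of 7 markers of the adrenal cortex, 6 had a peak at their promoter in P1 females, where Hsd3b1 was missing, and 7 in each of the other lists. Of 6 medulla markers, promoters of 3 were called in P1 females and 4 in P1 males, against 6 at E18.5 and in both 2-week lists, 5 in the 12-week female and 3 in the 12-week male list. Of 6 erythroid markers, 5 were called in P1 females, 4 in P1 males, 3 at E18.5 and 1 in each later list, while the promoter of Gata1, the master regulator of red-cell genes, was called in none. Of 4 kidney markers, 0 were called in any list. Of 4 fat markers, 1 was called in each P1 list and in 12-week males, 3 at E18.5, 4 in 2-week females and 2 in both 2-week males and 12-week females. Of 4 immune markers, 0 were called in P1 females, 3 in P1 males, 2 at E18.5, 0 in both 2-week lists, and 4 and 3 in the female and male lists of 12 weeks. Of 4 liver markers, Ttr was called in P1 females, Apoa1 at E18.5 and 0 in the other lists. The marker content thus differed among the lists that define presence and absence, and its part in the choice of members was not tested. The lists held between 44250 and 108336 peaks, the longest being E18.5, and the depth behind them is unknown. A region missing from a list is therefore not shown to lack the mark.

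Regions called only at P1 made up 2.57% of the 29281 regions that both P1 lists shared. By comparison, 266 regions (0.18% of all) were called in both 2-week lists alone and 3973 (2.69%) in both 12-week lists alone. A further 504 regions (0.341%) were called in both P1 lists and at E18.5 but at no later age. Single P1 lists held more private regions than the pair: 5030 regions were called in P1 females alone and 1849 in P1 males alone. Of the regions in both P1 lists, 19521 were called in all 7 libraries. The count of members leans most on the E18.5 list, for without it 1272 regions would have been members.

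The peaks behind the members were weak. Peak strength is given as the −log10 q of the authors' peak caller, the larger the less likely the peak is background, and it is compared only within a list. The members had a median −log10 q of 1.54 in P1 females (highest 4.28) and 1.40 in P1 males (highest 4.50), against medians of 1.92 and 2.07 for all peaks of those lists on the same chromosomes. Their median fold enrichment over the caller's background was 2.79 in females and 2.85 in males, against 2.96 and 3.15 for all peaks. In terms of rank, the median member stood at percentile 32.3 of the female list and 23.9 of the male list. Taking the lower of both ranks, the median was percentile 17.0 and the highest 69.7. A −log10 q of at least 2 in both lists was reached by 28 members (3.72%), and of at least 3 by 0.

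The sexes ranked the members differently. Across the 753 regions, the −log10 q of the female and the male list had a Pearson correlation of 0.172 and a Spearman correlation of 0.161, given as a description, since all regions share the same 2 libraries and were kept for passing both cutoffs. The overlap of the female and the male peak had a median of 268 bp, against a median peak width of 586 bp in females and 487 bp in males. The members were 817 bp wide in the median, with a range of 187 to 4655 bp. Regions of both P1 lists that were shared with more of the other lists were stronger, with a median lower percentile of 18.8 for those with 1 other list, 24.3 with 3, 34.2 with 4 and 75.1 with all 5.

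**Figure D1:**
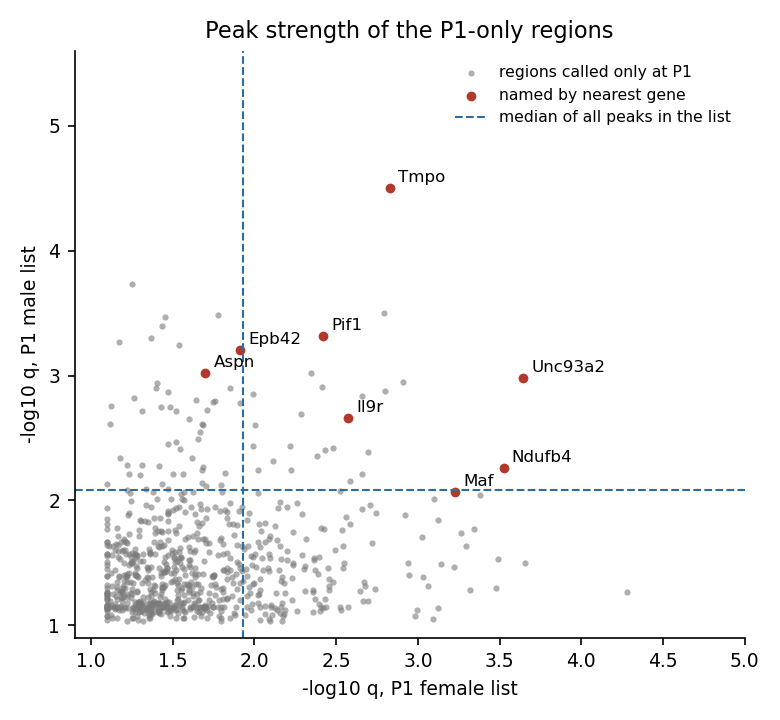
Each grey point is 1 of the 753 regions called only at P1, by the −log10 q of its strongest peak in the P1 female list (horizontal axis) and in the P1 male list (vertical axis); red points are named by the nearest protein-coding gene and dashed lines are the medians of all peaks in each list. Most points lie below both medians, and 28 regions reach 2 in both lists.

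The edge of the group was set by peaks close to the callers' limit. The weakest member lay on chromosome 19 near Stn1, a telomere maintenance gene, with a −log10 q of 1.22 in females and 1.03 in males. Next came a region in an intron of Notch2, a receptor of the Notch pathway, with 1.80 in females and 1.04 in males. Just outside was a region near Nipa1, a magnesium transporter, with 1.38 in females and 1.16 in males, that was left out because of an E18.5 peak with a −log10 q of 1.10. A region near Gja10, a connexin, was left out because of a 12-week male peak of 1.11. Values on both sides of the edge were alike, and none of the 753 members kept its place when every list was limited to peaks of at least 3. That limit gave 56 regions called only at P1, and these overlapped 0 of the members.

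The members lay mostly away from gene starts. Of the 753, 402 had their midpoint in an intron (53.4%, 95% Wilson interval 49.8% to 56.9%) and 277 between genes (36.8%, 33.4% to 40.3%). A further 50 lay at most 1 kb from an annotated start and were called promoter regions (6.64%, 5.07% to 8.65%), and 24 lay in exons (3.19%). The promoter share rests in part on the E18.5 list, for it was 10.7% among the 1272 regions found without that list. Over all union regions, promoter regions made up 15.7%, introns 48.0% and intergenic regions 31.0%. The 504 regions shared with E18.5 alone had a promoter share of 17.5%, and the regions of all 7 lists one of 62.1%. The promoter share of the members was near that of other private regions, with 5.64% for 2 weeks only, 6.22% for 12 weeks only, 5.65% for P1 females alone and 5.95% for P1 males alone. The median member lay 43591 bp from the nearest protein-coding start, against 24825.5 bp over all union regions and 28005 bp for the regions of 12 weeks only. Other private regions were as far or nearly so, with 42362.5 bp for 2 weeks only, 35693.5 bp for P1 females alone and 35579 bp for P1 males alone.

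**Figure D2:**
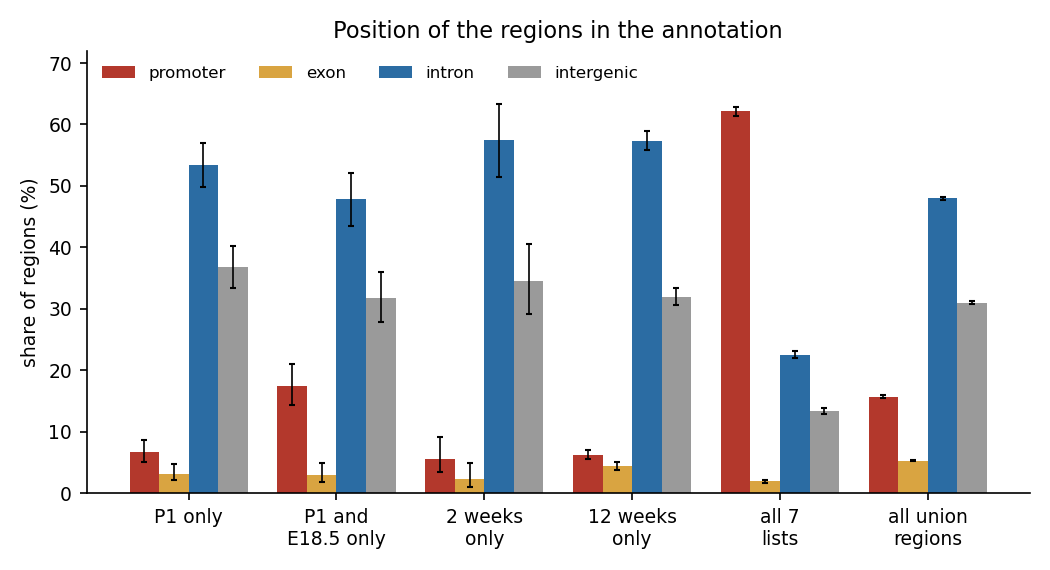
Bars give the share of regions (vertical axis, in percent) in promoters, exons, introns and between genes for 6 sets of regions, and error bars are 95% Wilson intervals that cover counting error only. The P1-only regions are 6.64% promoter regions, against 17.5% for regions of P1 and E18.5 alone and 62.1% for regions in all 7 lists.

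Base composition set the members apart only slightly. The central 300 bases had a median GC content of 47.3%, against 49.7% over all union regions, 51.3% for the regions of P1 and E18.5 and 46.3% for those of 12 weeks only. Windows that were at least 50% repeat-masked made up 3.98% of the members and 13.5% of all union regions, but also only 5.03% of the regions in all 7 lists, 5.16% of those of P1 and E18.5, 6.02% of those of 2 weeks only and 5.68% of those of P1 males alone. The share was 7.08% for P1 females alone and 8.43% for 12 weeks only. Of the 753 central windows, 1 had a near-identical copy elsewhere in the genome, and it was not among the strongest 25.

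The strongest members named genes of many kinds. The first was a 417 bp intergenic region (chr10:91249752-91250168), 78170 bp upstream of Tmpo, which encodes a lamina-associated protein, with a −log10 q of 2.83 in females and 4.50 in males. The next, 291 bp wide, lay near the vomeronasal receptor gene Vmn2r112 (chr17:22674327-22674617, 2.79 and 3.50). The third lay 147407 bp from Unc93a2 (chr17:7532871-7533625, 3.64 and 2.98). An intronic region of Zhx2, a repressor known for shutting off fetal genes in liver after birth, had values of 2.91 and 2.95 (chr15:57753440-57753709). It lay 75 bp from a peak of another list, so it borders on chromatin that another age also called.

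Among the 25 strongest, several lay within genes. Introns held the members of Kif6, a kinesin (2.80 in females, 2.87 in males), of Adamts20, a secreted metalloprotease (2.66, 2.84), and of Ank3, which encodes ankyrin G (2.35, 3.02). Ssmem1 held one 1717 bp from its start (2.28, 2.69). Further intronic members lay in Tbxas1, the thromboxane synthase gene (2.69, 2.38), Sec61g, a subunit of the protein translocation channel (2.38, 2.36), and Cdyl, a chromodomain corepressor (2.12, 2.32). The same held for Pde4d, a cAMP phosphodiesterase (2.23, 2.24), Mthfd1l, a mitochondrial folate enzyme (2.02, 2.24), and Maml3, a Notch coactivator (2.58, 2.15). A member within Spidr had Cebpd, a C/EBP transcription factor, as its nearest protein-coding start (2.43, 2.40). One near Gypc, the glycophorin C gene of the red-cell membrane, had 2.42 and 2.91. A region over an exon of Wdr63 was nearest to Syde2 (2.003, 2.61), and one within Col18a1, a basement membrane collagen, lay 635 bp from the start of Gm7775 (1.99, 2.85).

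The members at Pif1 and near Gm12108, the latter nearest to Il9r (2.57 in females, 2.66 in males), were promoter regions. The others lay between genes. They were nearest to Cdo1, a cysteine-degrading enzyme (2.22 in females, 2.43 in males), to Ahr, the aryl hydrocarbon receptor (2.48, 2.42), to Ndufb4, a subunit of respiratory complex I (3.52, 2.26), to Dmrta1 (2.66, 2.21) and to Slc29a2, a nucleoside transporter (1.99, 2.44). Distance to these starts ran from 6976 bp for Slc29a2 to 187207 bp for Dmrta1, so the nearest gene is a label of position and not a known target. None of the 25 lay within 50 kb of a start of a gene in the lists drawn up for this tissue.

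Promoters of protein-coding genes accounted for 22 members (2.92%). The strongest was that of Pif1, a DNA helicase (chr9:65586599-65587347), with a −log10 q of 2.42 in females and 3.31 in males, 399 bp from the next E18.5 peak. Epb42, which encodes protein 4.2 of the red-cell membrane skeleton, followed (chr2:121035045-121037430, 1.91 and 3.20). The Epb42 region was 2386 bp wide and lay 4402 bp from any peak of another age. Among the weaker ones, named here after their values were seen, were Aspn, a matrix proteoglycan (1.70, 3.02), Sox6, a transcription factor of cartilage and of maturing red cells (1.47, 2.09), Rag1, the antigen receptor recombinase (1.41, 1.18), Gp1ba, a platelet glycoprotein (1.38, 1.19), Ackr1, the chemokine receptor that carries the Duffy blood group (1.18, 1.67), and Aqp9, a water and glycerol channel (1.54, 1.21). Members also covered the starts of Col6a6, a collagen VI chain (1.69, 1.15), and of Actg2, the gamma actin of smooth muscle (1.68, 1.14). For 7 of the 22 genes no annotated start held a peak in any of the other 5 lists: Actg2, Apol8, Aspn, Col6a6, Epb42, Gm42906 and Rag1. The rule sets this count in part, since a member overlaps no peak of those lists, and it is given as a description.

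Most members had a peak of another age nearby, as union regions in general lie close together: the median member had 10 other regions within 50 kb, against 11 over all union regions. The nearest peak of the E18.5 list lay 5255 bp away in the median, against 9244 bp for 12-week females, 10948 bp for 2-week females, 14571 bp for the 12-week male list and 15307 bp for the 2-week male list. The E18.5 list was the longest and the 12-week female list the next. The 12-week male list, however, was longer than the 2-week female list (52313 against 49382 peaks on these chromosomes). The part of list length in this order was not tested. The nearest peak of any of the 5 lists was 3179 bp away in the median. Such a peak lay within 1 kb of 161 members (21.4%), within 5 kb of 486 (64.5%) and within 20 kb of 682 (90.6%). Leaving out those within 1 kb would have kept 592 regions.

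**Figure D3:**
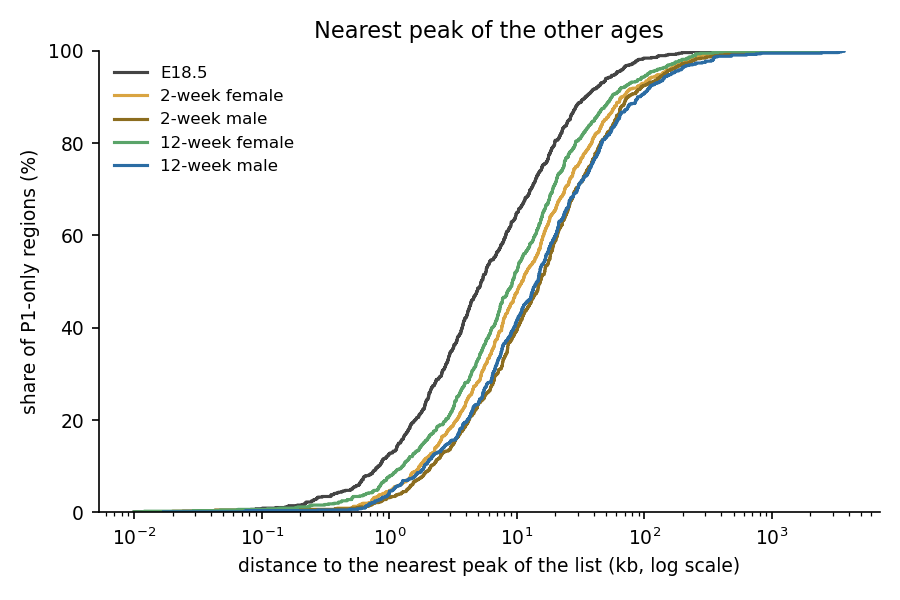
Curves give the cumulative share of the 753 P1-only regions (vertical axis, percent) with a peak of the named list at most the given distance away (horizontal axis, kb on a log scale). The E18.5 curve lies to the left, with a median of 5255 bp, and both male curves to the right, with medians of 14571 and 15307 bp.

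Members lay near each other more often than union regions at large lay near a member. Within 50 kb, 145 members (19.3%) had another member, against 4.82% of all union regions with a member nearby and 14.7% of the regions of P1 and E18.5 alone. Regions of 12 weeks only gathered as well, with 39.8% of them near another of their kind, against 23.6% of all union regions. A region of P1 and E18.5 alone lay within 50 kb of 69 members (9.16%) and of 4.17% of all union regions. A region called in all 2-week and 12-week lists but in no P1 list was within 50 kb of 10.8% of members, against 19.6% of all union regions. No such shift was seen for regions of all 7 lists, with 62.4% and 65.96%. The 145 clustered members formed 64 groups, of which 52 were pairs and 9 were triplets. By chromosome, members made up 0.856% of the union regions on chromosome 10 (62 regions) and 0.796% on chromosome 13 (53), and 0.298% on chromosome 14 (18).

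The 2 largest groups, of 5 members each, lay next to imprinted genes, which are expressed from 1 parental copy. One spanned 73143 bp of chromosome 10 (13168595 to 13241737), from Zc2hc1b into Phactr2, next to Plagl1, a paternally expressed zinc-finger gene of fetal growth. Its strongest member had a −log10 q of 2.24 in females and 1.75 in males. Phactr2, a phosphatase and actin regulator, was also the nearest gene of 3 further members in its introns, with values of 2.53 and 1.76, 1.87 and 1.23, and 1.51 and 1.51. Both P1 lists marked this stretch more densely than the later ages did. Over the 413.909 kb from Plagl1 to Phactr2 there were 57 union regions, of which 8 were members. Of the 49 that were not, 28 were called in P1 females and 29 in P1 males, 18 at E18.5, and later 13 (2-week female), 8 (2-week male), 15 (12-week female) and 8 (12-week male). The other side of Plagl1 did not share this pattern: over 420 kb before its start there were 19 and 27 peaks in P1 females and males, against 35 and 32 at 12 weeks.

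The other group spanned 122539 bp of chromosome 6 (30594781 to 30717319), across the carboxypeptidase genes Cpa5 and Cpa1, the ciliary gene Cep41 and up to Mest. Mest is a paternally expressed gene of mesoderm. The widest of all members, at 4655 bp, lay 16187 bp from the nearest Mest start of the basic annotation set (chr6:30712665-30717319), with a −log10 q of 1.98 in females and 1.56 in males. The map of this locus is drawn from the first base of the whole gene record, which begins nearer to that member. The Mest promoter itself was called in all 7 lists. Of the 49 regions between Ssmem1 and Mest that were no members, 33 were called in each P1 list and 31 at E18.5. At 2 weeks there were 22 in the female and 21 in the male list, and at 12 weeks 15 and 12. At both loci the P1 counts were thus the highest also among regions that are no members, although each age and sex rests on 1 library and the loci were picked after their values were seen.

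**Figure D4:**
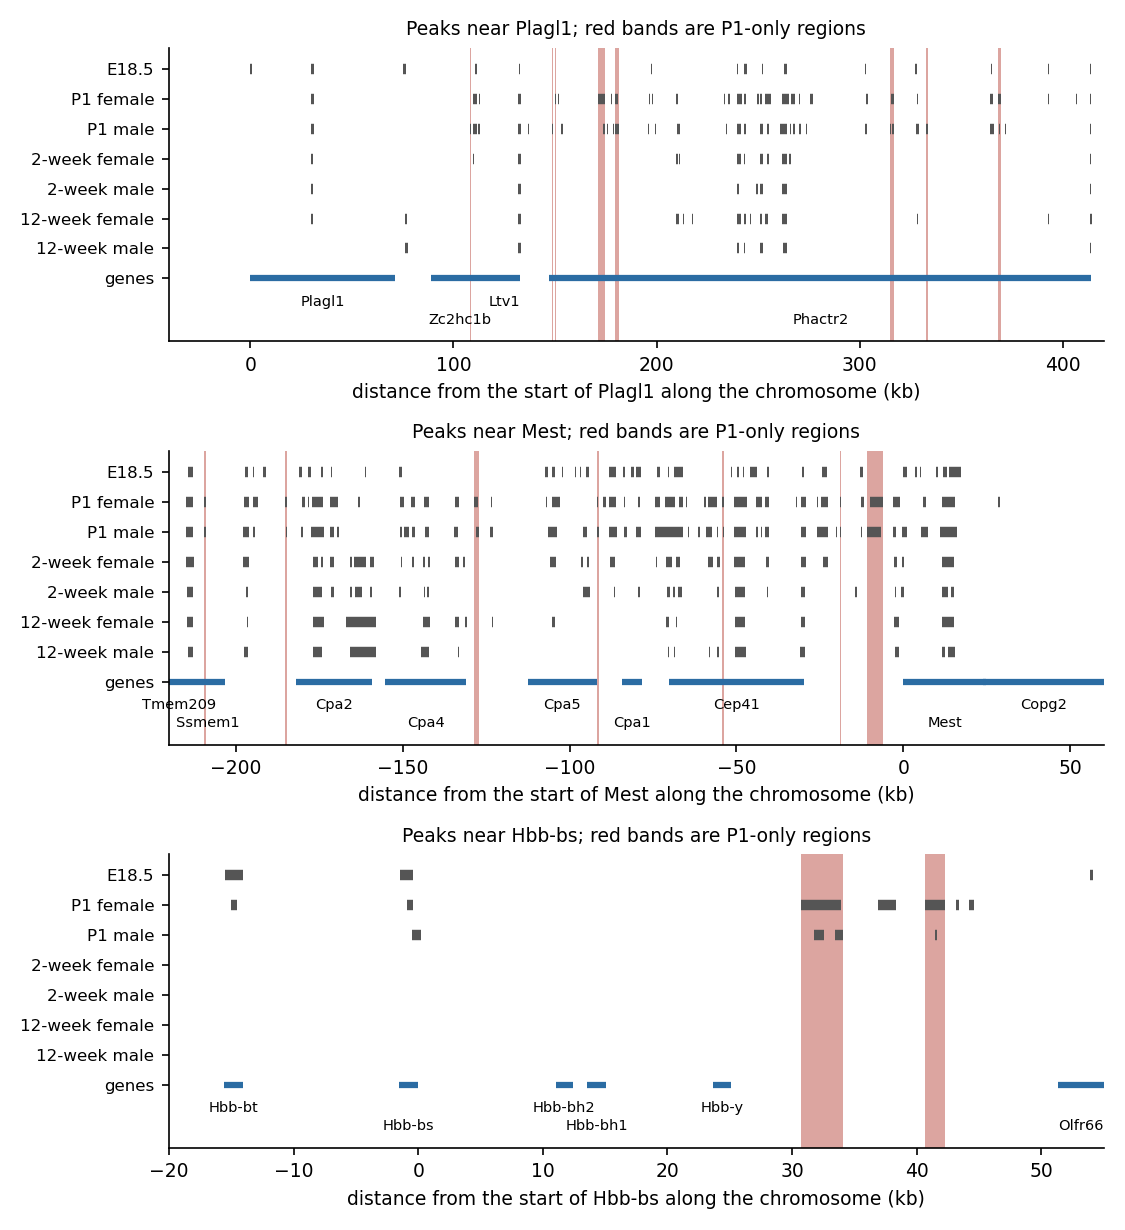
Dark boxes are peaks of the 7 lists (rows) near Plagl1, Mest and Hbb-bs, blue bars are genes, red bands are P1-only regions, and the horizontal axes give the distance in kb from the start of the gene named in each title. Within the range drawn, the panel of Plagl1 holds 36 and 39 peaks in the P1 rows, 19 at E18.5 and 8 to 15 in the later rows. That of Mest holds 46 and 43 in the P1 rows, 38 at E18.5 and 15 to 30 later. That of Hbb-bs holds 7 and 4 in the P1 rows, 3 at E18.5 and 0 later. The P1 counts include the peaks of the members, which were chosen for being called at P1 alone.

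Other genes gathered members too. In all, 640 protein-coding genes were the nearest to at least 1 member, 69 of them to 2, 19 to 3 and 2 to 4. The 2 with 4 members were Ltv1, a ribosome assembly factor next to Phactr2, and Spata18, a gene of mitochondrial quality control. The Spata18 members lay 117439 to 188594 bp from its start (chr5:73774974-73847652), with a lower −log10 q between 1.52 and 1.68. Gypc had 3 members in and near its gene body, over 39719 bp of chromosome 18, and its promoter was called in all 7 lists. Fcnb, which encodes ficolin B of myeloid cells, had 3, but 1 of them lay in an intron of Col5a1, a fibrillar collagen gene. The remaining genes with 3 members were Adamts20, Arhgap5, Atp2b1, Celf2, Cetn3, Dapk1, Gcnt1, Lpin2, Mical3, Nrep, Osbpl1a, Pard3, Phactr2, Sorl1, Supt20, Thbs2 and Usp29. For 16 of these 21 genes the promoter was called in all 7 lists, as was that of 55.8% of all protein-coding genes.

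Few members lay near genes of the lists drawn up for this tissue. Within 50 kb of a start, 11 of 163 listed genes (6.75%) had a member, against 672 of 20780 protein-coding genes (3.23%). Of the 163, 5 lie on chromosome X and could have no member. None of the 18 steroidogenic, 13 capsule and glomerulosa, 15 chromaffin, 8 Schwann cell, 8 endothelial, 10 immune, 8 kidney or 8 liver genes did. At the 3.23% of all genes, fewer than 1 gene would be counted in lists of this size, so these zeros carry little weight.

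The erythroid list had 3 of its 12 genes near a member: Hbb-bs and Hbb-bt, the adult beta-globin genes, and Epb42. Upstream of the globin genes lay 2 members, in the stretch that holds the locus control region, a distant enhancer cluster of the beta-globin genes. The first (chr7:103858803-103862214, 3412 bp) had a −log10 q of 2.04 in females and 1.63 in males. The second (chr7:103868727-103870404, 1678 bp) had 1.16 and 1.65. The next peak of any other age lay 19773 bp from the first and 11583 bp from the second. Over the 61.473 kb from Hbb-bt to the second member and beyond there were 5 union regions besides these members, of which 5 were called in P1 females, 1 in P1 males, 2 at E18.5 and 0 in each later list. Away from the members, then, P1 males were not above E18.5. The Hbb-bs promoter was called in both P1 lists and at E18.5, and in no later list. The erythroid markers counted at promoters, from 3 at E18.5 and 5 and 4 at P1 to 1 later, include Hbb-bs and the member at Epb42, so they are no separate measure. The share of blood in the glands was not tested.

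In the fetal and growth list, 2 of 17 genes had a member nearby, Mest and Peg3, a paternally expressed zinc-finger gene. The Peg3 member lay in an intron of the neighbouring Usp29 (chr7:6773924-6776298), with a −log10 q of 1.52 in females and 1.74 in males. Of 36 union regions from Peg3 to Usp29, 3 were members. Of the 33 others, 21 and 18 were called in P1 females and males, 14 at E18.5, 9 and 5 at 2 weeks and 2 and 1 at 12 weeks. The cell cycle list had 2 of 14, in an intron of Cdk1, the mitotic kinase (1.51, 1.54), and of E2f1, a transcription factor of the G1/S transition (1.17, 1.39). In the matrix list, Col3a1, a fibrillar collagen, held 1 in an intron (1.18, 1.23).

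Of 10 glucocorticoid response genes, 2 had a member: an exonic region of Fkbp5, a chaperone of the glucocorticoid receptor (2.39 in females, 1.41 in males), and a region 36840 bp from Errfi1, a feedback inhibitor of the EGF receptor (1.53, 1.52). Of 8 fat genes, Fabp4, a fatty-acid carrier, had 1 at 34076 bp (2.46, 1.37). Promoters of Mest, Peg3, E2f1, Fabp4, Fkbp5 and Errfi1 were called in all 7 lists, that of Cdk1 in all but 12-week males, and that of Col3a1 in all but E18.5 and 12-week males.

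The genes next to distal members mostly had a promoter peak at all ages. Of 623 genes nearest to a member more than 1 kb from their starts, 458 (73.5%, 69.9% to 76.8%) had a promoter peak in all 7 lists. This was above the 59.5% found with all union regions and close to the 74.5% for regions of 12 weeks only and the 72.7% for 2 weeks only. A promoter called in both P1 lists and in no 2-week or 12-week list was found for 6 of the 623 genes (0.963%, 0.442% to 2.09%). With all union regions the share was 0.352%. With regions of P1 and E18.5 alone it was higher, at 7 of 404 genes (1.73%). It was 0.408% with 2 weeks only and 0.111% with 12 weeks only. The 6 genes were Akap6, an anchor of protein kinase A, Aqp9, Ccdc3, Cpa1, Igf2bp3, a fetal RNA-binding protein, and Lvrn, an aminopeptidase. Their promoters were all called at E18.5 too. The promoter of Aqp9 was itself partly a member, and the Igf2bp3 member lay in its intron, 55309 bp from the start, with a −log10 q of 1.52 in females and 1.06 in males.

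In all, 16 motifs were searched in the 703 members more than 1 kb from a start. Some were found there at other shares than in regions of 12 weeks only. The SF-1, TEAD, AP-1, GATA and HIF shares in regions of P1 and E18.5 alone were within the members' intervals, and those of the SOX, E-box and RUNX motifs were not. For the ETS, NFI, PBX, homeobox, KLF, CREB and HNF4 motifs, the shares in union regions and 12-week regions lay within the members' intervals. The ETS motif, for example, was found in 1.99% (1.19% to 3.31%) of members, 2.14% of union regions and 1.45% of 12-week regions. The homeobox motif was found in 5.97% (4.45% to 7.98%), 5.47% and 5.82%. The SF-1 motif CAAGGTCA was found in 10 central windows of 300 bases (1.42%, 0.774% to 2.60%). It was found in 2.79% (2.70% to 2.88%) of 124586 union regions and in 4.88% (4.24% to 5.62%) of 3726 regions of 12 weeks only. Regions of P1 and E18.5 alone were as low, at 1.20%, and those of 2 weeks only were at 2.79%. The same letters read backwards, a reference of equal base composition, were found in 0.996%, 1.17% and 1.29% of members, union regions and 12-week regions. The gap to all union regions shrank with wider windows: in the central 500 bases the motif was found in 3.56% of members and 4.57% of union regions, against 8.32% of the 12-week regions.

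The TEAD motif ACATTCC, bound by the nuclear partners of the Hippo pathway, was found in 7.11% of members (5.44% to 9.25%), 4.43% of union regions and 4.91% (4.26% to 5.65%) of the 12-week regions. It was as frequent in regions of P1 and E18.5 alone, at 6.97% (4.90% to 9.83%), and was found in 5.58% of those of 2 weeks only. Its reversed letters gave 3.70%, 3.48% and 3.62%. The E-box CAGCTG, read by basic helix-loop-helix factors, was found in 21.3% (18.47% to 24.5%), 19.3% and 15.6% (14.4% to 16.8%). The AP-1 motif TGANTCA, of Fos and Jun factors, was found in 9.96% of members (7.96% to 12.4%), 9.84% of union regions and 15.9% (14.8% to 17.1%) of 12-week regions. For the letters AGATAA, bound by factors of the GATA family in cortex, medulla and blood, the shares were 14.5% (12.1% to 17.3%), 13.7% and 17.8% (16.6% to 19.1%), and the reversed letters were shifted alike, with 12.5%, 11.1% and 15.2%. In regions of P1 and E18.5 alone the E-box was found in 25.5%, AP-1 in 8.65% and AGATAA in 14.2%.

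The SOX motif ACAAAG was found in 30.4% (27.2% to 33.9%) of members, 23.8% of union regions and 27.5% (26.1% to 28.9%) of the 12-week regions. Regions of P1 and E18.5 alone were at 25.2% (21.3% to 29.6%), nearer to the union share than to the members, and regions of 2 weeks only were at 35.1%. The reversed letters were found in 29.7% of members, 21.9% of union regions, 25.3% of 12-week regions and 21.6% of regions of P1 and E18.5 alone, a like pattern over these sets. The hormone-receptor hexamer TGTTCT, part of the glucocorticoid response element, was found in 30.2% (26.9% to 33.6%) of members, 25.2% of union regions, 28.1% of the 12-week regions and 27.9% of those of P1 and E18.5 alone. The RUNX motif TGTGGTT was found in 6.83% (5.19% to 8.94%) of members, 6.47% of union regions, 6.04% of 12-week regions and 5.05% of regions of P1 and E18.5 alone. The HIF motif ACGTG, of the hypoxia-inducible factors, was found in 17.2% (14.6% to 20.2%) of members, 15.1% of union regions and 13.1% (12.0% to 14.2%) of 12-week regions, and the intervals of members and 12-week regions do not overlap. Regions of P1 and E18.5 alone were at 17.3%. Its reversed letters were found in 39.3%, 40.9% and 38.2% of members, union regions and 12-week regions. They lack the CG pair that the HIF motif holds, so they are no like reference for it. A match is a stretch of letters and not a bound site. Windows of members were centred on the overlap of the P1 peaks and those of other sets on the middle of the region, and GC content differed between the sets, whose part in these shares was not tested.

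**Figure D5:**
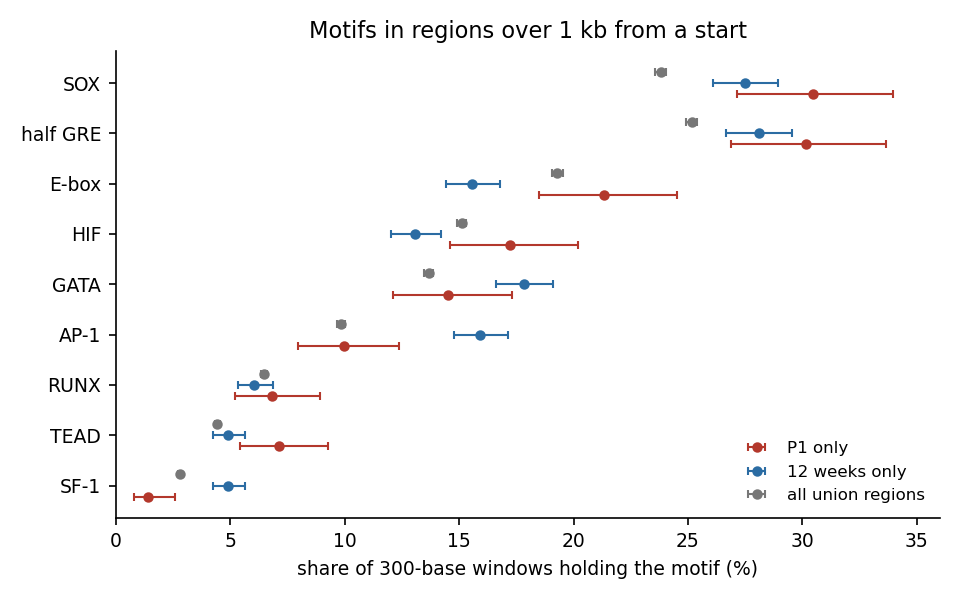
Points give the share of central 300-base windows that hold each motif (horizontal axis, percent) for P1-only regions, regions of 12 weeks only and all union regions more than 1 kb from a start; bars are 95% Wilson intervals. Of the 3 sets, the P1-only regions stand lowest for SF-1 (1.42%) and highest for TEAD (7.11%). Not all of the 16 motifs searched are drawn.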

How the data were processed

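H3K27ac ChIP-seq was made from whole adrenal glands, with 1 pooled library per age and sex; formaldehyde-fixed, sonicated tissue was used for it, per the labels' protocols. The submitters' processing notes name CASAVA 1.8.2, Bowtie2 2.3.4.3, MACS2 2.1.1, deepTools 3.2.2.0 and the build mm10; control library and cutoff are not given in the sources used here. The authors deposited 1 broad peak list per library. Each peak carries a score, which in the deposited files equals 10 times the −log10 q without its decimals for nearly all peaks, and a fold enrichment, a −log10 p and a −log10 q that the authors' caller computed for that library alone. The lists hold no read counts, so depth is unknown, and values were only described, ranked or filtered within a list.

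Peaks on chromosomes 1 to 19 of the 7 lists were merged where they overlapped by at least 1 base. A region counted as called where at least 1 base overlapped a peak. Where a region held several peaks of a list, the strongest was used. Scaffold peaks and chromosomes X and Y were left out of the regions; the cell type markers at promoters were also counted on chromosome X. Coordinates are on GRCm38 (mm10), counted from 1, with the GENCODE M21 basic annotation; sequences are from the RefSeq copy of that build. Of printed windows, those with over 10% of repeats, in an untranslated region or on chromosome 18 were passed over, except the one near the globin genes. Motifs were searched on both strands, including any overlap. Near-identical copies of the members' windows, of at least 270 aligned bases at 95% identity, were searched with blastn. Intervals are 95% Wilson intervals, treat regions as independent and cover counting error only. No test was run, since the calls that chose the members are the only measure of each age.

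The members and lists were chosen with earlier results of these data known. Regions named are the 25 with the highest lower percentile of −log10 q in both P1 lists, promoters of protein-coding genes among the first 40, genes nearest to 3 or more members, and members within 50 kb of a start of a listed gene; all others were picked after their values were seen. Call patterns planted in simulated lists and motifs planted in simulated sequences were recovered, while distances were not checked in this way. The software was bedtools 2.31.1, Python 3.11.15, numpy 2.4.6, pandas 2.3.3 and pysam 0.24.0.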

Additional observations from a re-analysis of the deposited data

How the results depend on the processing

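The number of regions called only at P1 depended on the strength asked of the peaks. It was 753 with all peaks, 56 when every list was held to a −log10 q of at least 3, 5 with at least 5, and 0 with at least 3 in both P1 lists and all peaks elsewhere. With the 43638 top peaks of each list it was 1426, and these overlapped 672 of the 753 members. With 1 of the other 5 lists left out in turn it lay between 803 and 1272, the highest without E18.5. Merging across 1 kb (667), no other peak within 1 kb (592), an overlap of 50% of the shorter peak (616) and adding chromosome X (754) stayed within 1.5 times of 753.

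The promoter share was 12.5% with −log10 q of at least 3, 20% with at least 5, 2.92% counting only protein-coding starts, and between 6.28% and 10.7% with a list left out, the highest again without E18.5. The intron share was 35.7% and 40% at the stricter limits and between 50.8% and 54.2% with a list left out. In central windows of 500 bases, SF-1 was found in 3.56%, TEAD in 11.2%, SOX in 42.1% and TGTTCT in 44.0% of members, as longer windows hold more matches. Within 100 kb, 21 of 163 listed genes had a member, against 1338 of 20780 protein-coding genes (6.44%). With −log10 q of at least 3 in both P1 lists, shares and motifs gave no value, since no region was left. Each age and sex is 1 library with no replicate number, so no replicates could be paired, and pairs of female and male lists of the same age were not tested.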

Other observations

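Imprinted genes, which are expressed from 1 parental copy and many of which act in fetal growth, stood out when the members were read through. A list of 47 imprinted genes was written after that, so the counts describe what prompted them and are no independent support. Within 50 kb of a start, 5 of the 47 genes had a member (10.6%), against 3.23% of all protein-coding genes: Mest, Peg3, Phactr2, Slc38a4 and Usp29. Within 100 kb there were 12 of 47 (25.5%), against 6.44% of all genes, and H19, Plagl1, Zim1, Airn, Nnat, Nap1l5 and Cobl were added. These genes lie in clusters, so 1 member can count for several of them, as the same members do for Peg3, Usp29 and Zim1. Slc38a4, an amino-acid transporter, had 2 members. One lay 11416 bp from its start (chr15:97067372-97067676, −log10 q of 3.10 in females and 2.01 in males) and the other in an intron (chr15:97041479-97042618, 1.37 and 3.30). Their order by strength differed between the sexes.

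Hmga2, a chromatin protein of fetal growth, held 2 members far from its start and outside the 50 kb window. One lay in an intron (chr10:120398867-120400710, 2.52 in females and 2.08 in males) and the other in an exon (chr10:120391386-120391791, 2.03 and 1.25). A region 46548 bp from Maf, a transcription factor gene, had 3.23 and 2.07 (chr8:115754342-115754641). These were picked after their values were seen.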
